A study of Homo sapiens with 6 samples.

Results

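The annexins are calcium-dependent, phospholipid-binding proteins, and 9 of their genes (ANXA1, ANXA2, ANXA3, ANXA4, ANXA5, ANXA6, ANXA7, ANXA9 and ANXA11) are described here in HL60 cells with and without CRISPR/Cas9 targeting of SKI. They are 9 of the 56638 gene names in the count table, and all 9 were among the 16340 genes with enough reads to be tested. They were chosen from that table with the counts of all 6 libraries and the results of the comparison already known. Every difference between knockout and control given for these 9 genes is therefore a description, with no p-value, and supports no claim about them. At the edge of the choice, ANXA9 was listed with 310 reads in all libraries together, while ANXA13 was not, with 5 reads.

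HL60 is a human acute myeloid leukaemia cell line of promyelocytic character, while SKI is a nuclear partner of SMAD proteins that represses their target genes. The series holds 3 libraries of HL60 cells with a CRISPR/Cas9-mediated SKI deletion (knockout) and 3 of HL60 cells carrying a CRISPR/Cas9 control (control), all grown in RPMI with 10% FCS. The titles carry the number 3 for every knockout library and the number 1 for every control library, so each group appears to hold 1 line, and line and genotype cannot be told apart. The labels do not state that replicates were separate cultures, so the errors and p-values below cover library-to-library spread alone, part of which may be technical. SKI mRNA stood at 59.6, 40.7 and 42.0 CPM in knockout libraries, against 63.9, 83.5 and 88.5 CPM in control libraries (log2 -0.73, SE 0.19, edgeR adjusted p = 0.0282). Every knockout library lay below every control library, and the call was lost without knockout replicate 2 (0.0769), control replicate 2 (0.109) or control replicate 3 (0.136). Reads over the whole gene do not show which part of SKI was deleted.

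Annexins share a conserved core of repeats that binds negatively charged phospholipids when calcium rises, and differ mainly in their amino-terminal regions. Through this reversible binding they take part in membrane fusion, exocytosis, endocytosis and repair of the plasma membrane. In neutrophils and their precursors, annexins are known as cytosolic proteins that move to granule and plasma membranes on activation, and ANXA1 also acts outside the cell as an anti-inflammatory ligand.

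The start regions of the 4 annexin genes with the largest differences between the groups are shown because these genes were all higher in knockout cells. Each is a RefSeq window on GRCh38.p14 of 300 bases, 250 before and 50 after the annotated start, written on the strand of the gene. The windows are chr4:78551520-78551819 (plus strand) for ANXA3, chr1:150982042-150982341 (plus strand) for ANXA9, chr15:60397937-60398236 (minus strand) for ANXA2 and chr10:73414009-73414308 (minus strand) for ANXA7. A match on the opposite strand reads as the reverse complement. Capitals mark matches on either strand to any of 9 motifs. Of the general promoter elements, TATAAA was searched as the core of the box near the start that TBP binds. The letters CCAAT stood for the element that NF-Y binds, and GGGCGG for the one that SP1 binds. Of the elements of regulated factors, CAGAC was taken for SMAD proteins and TGTGGT for RUNX proteins. The myeloid factor PU.1 was represented by GAGGAA and the C/EBP family by TTGCNNAA. For AP-1 the search used TGANTCA, and for MYC it used the E-box CACGTG.
ANXA3: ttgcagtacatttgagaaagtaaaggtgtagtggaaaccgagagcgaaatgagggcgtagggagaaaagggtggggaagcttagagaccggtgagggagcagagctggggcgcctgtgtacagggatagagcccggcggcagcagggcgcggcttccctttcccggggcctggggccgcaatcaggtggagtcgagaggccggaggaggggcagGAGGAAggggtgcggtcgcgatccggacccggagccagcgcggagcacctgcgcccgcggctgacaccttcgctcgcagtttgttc
ANXA9: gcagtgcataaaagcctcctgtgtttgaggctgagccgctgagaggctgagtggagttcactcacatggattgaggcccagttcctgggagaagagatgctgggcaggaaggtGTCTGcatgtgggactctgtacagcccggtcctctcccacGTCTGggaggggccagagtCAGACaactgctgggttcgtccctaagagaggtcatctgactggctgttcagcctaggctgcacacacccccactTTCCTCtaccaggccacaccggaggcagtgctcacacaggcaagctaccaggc
ANXA2: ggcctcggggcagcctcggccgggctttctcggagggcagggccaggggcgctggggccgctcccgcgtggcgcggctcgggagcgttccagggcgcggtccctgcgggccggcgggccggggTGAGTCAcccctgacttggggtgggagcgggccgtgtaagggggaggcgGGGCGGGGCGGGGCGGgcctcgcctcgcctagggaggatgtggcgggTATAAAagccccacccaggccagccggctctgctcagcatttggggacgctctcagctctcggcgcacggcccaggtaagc
ANXA7: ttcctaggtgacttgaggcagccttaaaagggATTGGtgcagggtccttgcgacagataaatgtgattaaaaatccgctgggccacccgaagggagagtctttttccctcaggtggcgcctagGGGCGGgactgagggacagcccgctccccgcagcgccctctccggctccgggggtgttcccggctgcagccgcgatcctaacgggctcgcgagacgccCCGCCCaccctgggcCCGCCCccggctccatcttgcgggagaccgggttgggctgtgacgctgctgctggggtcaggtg

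No motif was present in all 4 of these windows. GAGGAA was in those of ANXA3 and ANXA9, and GGGCGG in those of ANXA2 and ANXA7. The ANXA3 window held a single match, GAGGAA, letters found in 27.9% of the 35116 RefSeq windows of this length. ANXA9 had CAGAC at 3 places, letters found in 45.3% of all windows, and GAGGAA once. ANXA2 had TATAAA (11.5% of windows), TGANTCA (7.7%) and 3 matches to GGGCGG (45.0%), where each match shares 1 letter with the next. ANXA7 had GGGCGG at 3 places and CCAAT (34.6%) once. RefSeq lists 13 windows for the 9 genes, since ANXA4, ANXA6 and ANXA11 have several starts, and the counts do not show which start HL60 cells used. Over all 13, TTGCNNAA was found only for ANXA1 (10.5% of all windows), TGTGGT in 2 windows of ANXA11 (13.1%), and CACGTG for ANXA4 and ANXA6 (7.3%). Of the letters in the 4 printed windows, TGANTCA was found for ANXA2 alone among the 9 genes. The other letters were not particular to the printed windows. TATAAA was also found for ANXA1 and ANXA11, and CCAAT for ANXA1, ANXA6 and ANXA11. GAGGAA was also found for ANXA1, ANXA4 and ANXA11. Both CAGAC and GGGCGG were also found for ANXA4, ANXA5, ANXA6 and ANXA11. The GC content was 64.7% for ANXA3, 59% for ANXA9, 76.0% for ANXA2 and 66.0% for ANXA7, with a median of 58.7% over all windows. ANXA9 had 5 CpG dinucleotides, ANXA3 25, ANXA2 32 and ANXA7 23, with a median of 14 over all windows. The ANXA1 window stood apart with 37.7% GC and 0 CpG dinucleotides. A match to such short letters is a description of the window and no evidence of binding.

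HL60 cells expressed annexins at very unequal levels, and ANXA5, ANXA6, ANXA7 and ANXA11 made up nearly all of the annexin mRNA. Levels between genes are compared as TMM-scaled CPM per kb of gene length, where CPM is the read count scaled to the size of the library and TMM a correction of that size for composition. The 4 genes together held 95.2% to 95.5% of the summed level of the 9 genes in knockout libraries and 96.4% to 97.3% in control libraries. The summed level was 182, 178 and 211.5 CPM per kb in the knockout libraries, against 153, 140.4 and 134 CPM per kb in the control libraries. All 3 knockout sums lay above all 3 control sums, with means of 190.3 ± 18.4 CPM per kb in knockout and 142 ± 9.48 CPM per kb in control (SD, n = 3 each). In bulk RNA, more cells expressing a gene and more RNA per cell cannot be told apart, and this holds for every level given here.

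**Figure D1:**
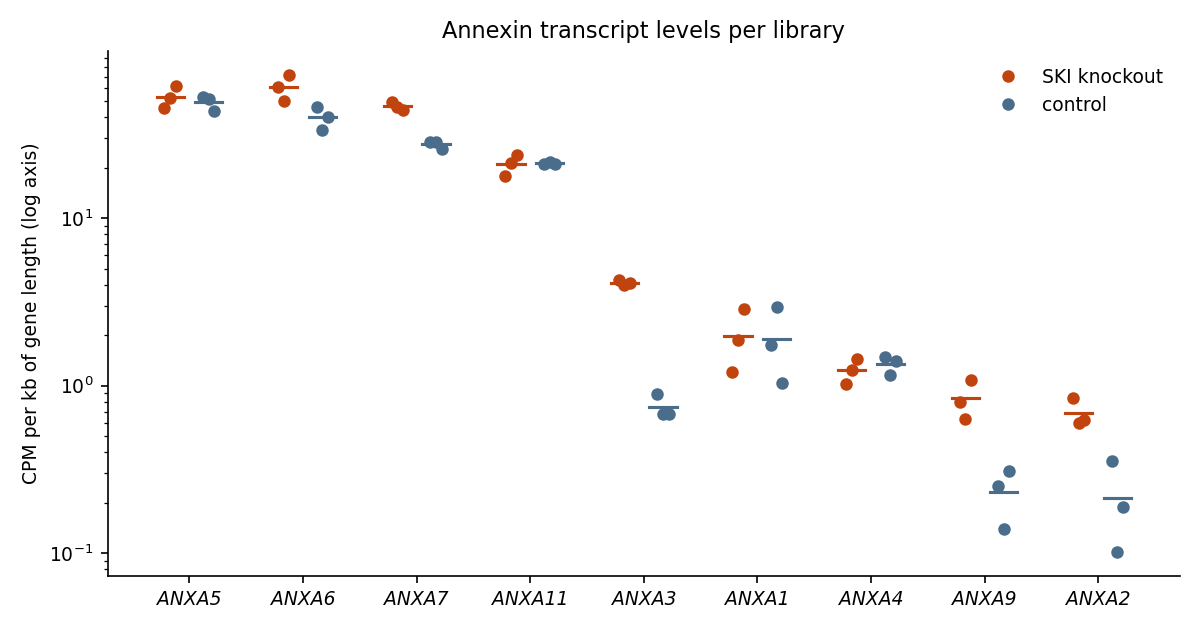
Level of each annexin gene in CPM per kb of gene length (log axis) in the 3 SKI knockout libraries (red, left) and the 3 control libraries (blue, right), with genes ordered by mean level and bars at group means. ANXA3 shows the widest gap, with knockout libraries at 3.99 to 4.30 and control libraries at 0.675 to 0.896 CPM per kb.

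In knockout cells the order of levels began with ANXA6 at 60.9 ± 10.8, ANXA5 at 53.1 ± 7.99 and ANXA7 at 46.5 ± 2.70 CPM per kb (SD, n = 3 each), whose library values overlapped from each gene to the next. ANXA11 at 20.9 ± 2.97 and ANXA3 at 4.12 ± 0.162 CPM per kb (SD, n = 3 each) followed, each clear of its neighbours. ANXA1 at 1.99, ANXA4 at 1.23, ANXA9 at 0.841 and ANXA2 at 0.689 CPM per kb closed the order, and each of these overlapped the next. In control cells ANXA5 came first at 49.2 ± 4.87 CPM per kb and overlapped ANXA6 at 40.0 ± 6.11 (SD, n = 3 each). ANXA7 at 27.6 and ANXA11 at 21.2 CPM per kb were clear of their neighbours, ANXA1 at 1.91 and ANXA4 at 1.34 overlapped, and ANXA3 at 0.749 lay below both in every library. ANXA9 and ANXA2 came last in control cells too, at 0.233 and 0.214 CPM per kb. ANXA3 thus stood in the fifth place in knockout cells and in the seventh in control cells. Deposited gene lengths ran from 1826 bases for ANXA9 to 9946 for ANXA4, and a gene whose long annotated forms are unused in HL60 is placed too low on this scale. With TPM in place of CPM per kb, the order of the 9 genes by their mean over all libraries was the same. TPM divides by the same gene lengths and keeps the order within each library, so it cannot test that limit.

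**Figure D2:**
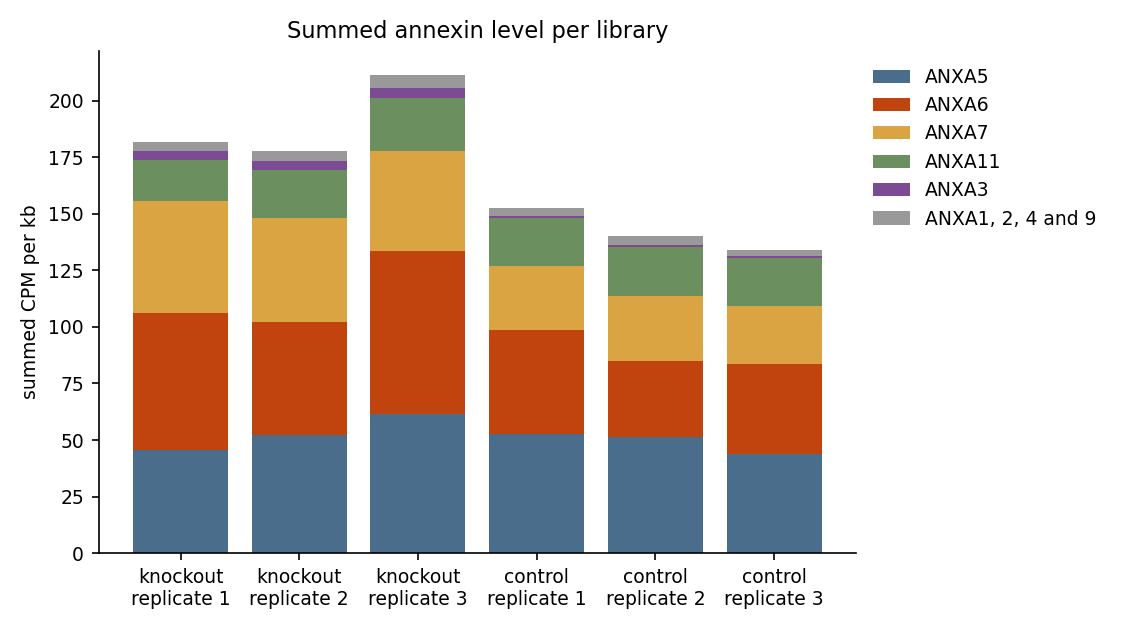
Summed level of the 9 annexin genes in each library, in CPM per kb, knockout libraries left and control libraries right, with each stack split by gene. ANXA5, ANXA6, ANXA7 and ANXA11 fill 95.2% to 97.3% of each stack, and the knockout stacks reach 178 to 211.5 where the control stacks reach 134 to 153.

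Of the 9 annexins, 4 had an adjusted p under 0.05 in edgeR's quasi-likelihood test over all genes, all 4 higher in knockout cells, where 11.8% of all genes tested passed in either direction and 6.19% were higher. These 4 were ANXA2, ANXA3, ANXA7 and ANXA9, and since the genes were chosen with this comparison known, nothing is read from the count. Knockout libraries lay above all control libraries for 5 of the 9 genes, the same 4 and ANXA6, where this held for 16% of genes tested and groups did not overlap in either direction for 32.2%. No annexin lay below control in all libraries. The median log2 fold change of the 9 genes was 0.61, against -0.01 over all genes tested.

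ANXA3, associated with granules in neutrophils and known to aggregate isolated granules, differed most. It stood at 22.0, 20.4 and 20.8 CPM in the knockout libraries, against 4.58, 3.46 and 3.45 CPM in the control libraries. Every knockout library exceeded every control library by a wide margin, and the libraries of each group lay close together. The means were 21.1 ± 0.827 CPM in knockout and 3.83 ± 0.649 CPM in control (SD, n = 3 each), a 5.50-fold higher level (log2 2.46, SE 0.19). ANXA3 made up 1.93% to 2.37% of the summed annexin level in knockout libraries and 0.482% to 0.587% in control libraries.

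ANXA9, an atypical annexin whose core lacks working calcium-binding sites, was the rarest of the 9 by reads. It had 81, 56 and 104 reads in knockout libraries, against 22, 15 and 32 reads in control libraries, or 1.46, 1.16 and 1.98 CPM against 0.460, 0.255 and 0.564 CPM. The groups did not overlap, and the mean was 1.53 ± 0.416 CPM in knockout and 0.426 ± 0.157 CPM in control (SD, n = 3 each), a log2 fold change of 1.85 (SE 0.37).

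ANXA2 binds the S100 protein S100A10 in a complex that assembles plasminogen and its activator at the cell surface, and is known for its high level in acute promyelocytic leukaemia. In HL60 cells it was scarce, at 7.46, 5.26 and 5.51 CPM in knockout libraries, against 3.12, 0.899 and 1.66 CPM in control libraries. All knockout values lay above all control values, but the control libraries themselves differed 3.47-fold from highest to lowest. The mean was 6.08 ± 1.21 CPM in knockout and 1.89 ± 1.13 CPM in control (SD, n = 3 each), a log2 fold change of 1.69 (SE 0.38). The adjusted p was no longer under 0.05 without knockout replicate 1 or without control replicate 3, and the log2 fold change ran from 1.35 without control replicate 2 to 2.25 without control replicate 1. ANXA2 has processed pseudogenes with near-identical sequence, so its count depends on how shared reads were treated. Of these, ANXA2P2 had 3 reads in all libraries together and ANXA2P1 and ANXA2P3 had 0.

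ANXA7, also called synexin and first described as a factor that fuses secretory granules, showed a smaller but tight difference. It stood at 142, 131 and 127 CPM in knockout libraries, against 81.1, 82.0 and 73.6 CPM in control libraries. Libraries within each group differed by at most 1.12-fold, and the groups were far apart. The means of 133 ± 7.72 CPM in knockout and 78.9 ± 4.61 CPM in control (SD, n = 3 each) gave a 1.69-fold higher level (log2 0.76, SE 0.14). Exons of ANXA7 overlap AL512656.1 on the opposite strand, and no source says if reads were counted by strand, so reads of the pair cannot be told apart.

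ANXA6, which carries a duplicated core and acts in endosome traffic and at the plasma membrane, had the most reads of the 9 genes. It stood at 329.5, 272 and 390.1 CPM in knockout libraries, against 249.7, 183 and 217.5 CPM in control libraries. All knockout values exceeded all control values, by a margin smaller than the spread within each group. The mean was 331 ± 58.8 CPM in knockout and 217 ± 33.2 CPM in control (SD, n = 3 each), a log2 fold change of 0.61 (SE 0.18). It did not pass the adjusted threshold in the test described above, but did in 7 of 16 alternative settings and in the authors' deposited table, where 5 of the 9 genes were under 0.05.

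The other abundant annexins showed group differences smaller than their own standard errors. ANXA5, the annexin used as a reagent to stain phosphatidylserine on dying cells, stood at 138, 158 and 187 CPM in knockout libraries, against 159.7, 156 and 132 CPM in control libraries, ranges that overlap in part. Its log2 fold change was 0.11 (SE 0.16). ANXA11, which has a long amino-terminal region and binds the calcium sensor PDCD6, stood at 156, 187 and 208 CPM in knockout libraries, against 184, 189.7 and 185 CPM in control libraries. The 3 control values of ANXA11 lay within 1.03-fold of each other and inside the knockout range, and its log2 fold change was -0.02 (SE 0.15). ANXA11 shares chromosome 10 with ANXA7, and ANXA5 shares chromosome 4 with ANXA3.

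ANXA1 and ANXA4 likewise did not separate the groups. ANXA1, a glucocorticoid-induced inhibitor of phospholipase A2 activity and a ligand of the receptor FPR2, stood at 5.48, 8.59 and 13.1 CPM in knockout libraries, against 7.93, 13.5 and 4.72 CPM in control libraries. It varied more within a group than between groups, by 2.39-fold among knockout and by 2.86-fold among control libraries. The log2 fold change was 0.05 (SE 0.37) and ran from -0.30 without knockout replicate 3 to 0.52 without control replicate 2. ANXA4, best known from the membranes of secretory epithelia, stood at 10.2, 12.3 and 14.4 CPM in knockout libraries, against 14.7, 11.5 and 13.9 CPM in control libraries. Its groups overlapped, with a log2 fold change of -0.12 (SE 0.19).

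**Figure D3:**
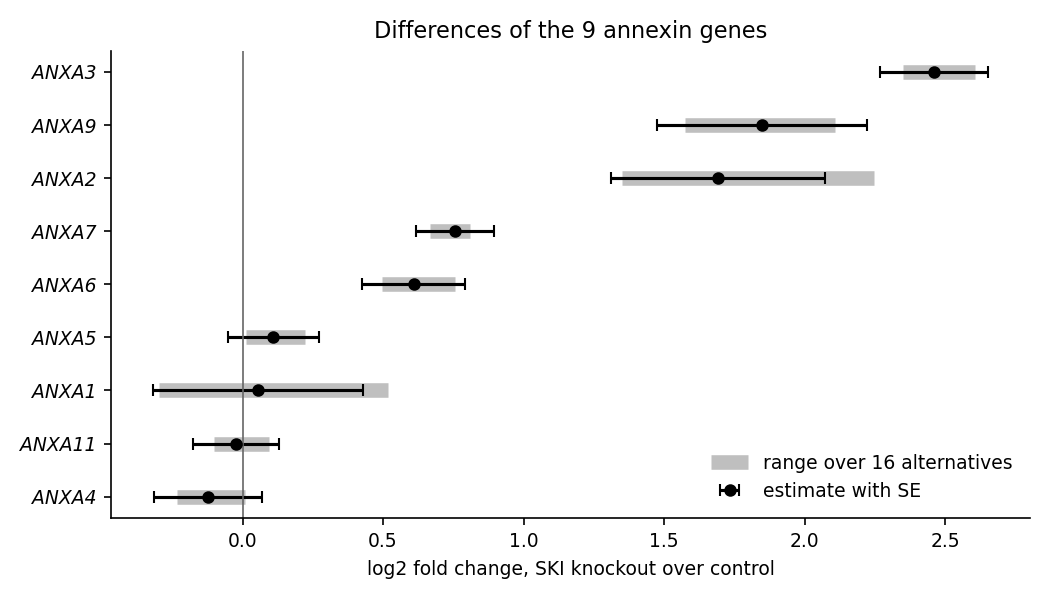
Log2 fold change of knockout over control for each annexin (points, with SE as black bars) and its range over 16 alternative settings (grey), ordered from the highest to the lowest. ANXA3, ANXA9, ANXA2, ANXA7 and ANXA6 stay above 0 in every alternative run, while the ranges of ANXA1, ANXA11 and ANXA4 cross 0 and that of ANXA5 reaches down to 0.01.

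The authors' deposited table gives the same 9 genes log2 fold changes between -0.10 for ANXA4 and 2.33 for ANXA3, with 1.53 for ANXA9 and 1.45 for ANXA2. Local shifts in expression along chromosomes were small around these genes. The median log2 fold change of the 50 nearest genes with an average log2 CPM above 2 ran from -0.06 at ANXA1 to 0.13 at ANXA3. After each gene was centred on those neighbours, an alternative added after the data were examined, ANXA3 was at 2.35 and ANXA7 at 0.67 on the log2 scale. The same 4 annexins were under the threshold with neighbour centring as with chromosome centring. Chromosome 9, which holds ANXA1, had a median log2 fold change of -0.23. Chromosome centring took ANXA1 from 0.05 to 0.29, and neighbour centring took it to 0.18.

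Profiles across the 6 libraries were compared by the root mean square distance of log2 CPM, each gene centred on its own mean. Among members the closest pair was ANXA5 and ANXA11, at 0.11, and the farthest ANXA1 and ANXA3, at 1.32. Of the members with every knockout library above every control library, ANXA6 and ANXA7 were 0.23 apart, and ANXA2 and ANXA9 0.45. Among 10567 genes whose mean log2 CPM reached 2 or more, those nearest to ANXA3 were TAF7 (0.09), AC005618.1 (0.19) and SSH3 (0.20). TAF7, a subunit of the general transcription factor TFIID, averaged 52.0 CPM in knockout and 9.26 CPM in control. Nearest to ANXA5, the annexin with the highest mean level per length, were AP000304.12 (0.02), the mitochondrial ribosome gene MRPL9 (0.03) and the spliceosome gene SNRPB2 (0.04). These are descriptions over 6 libraries that fall into 2 groups.

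Annexin genes outside the 9 were essentially silent. ANXA8, ANXA8L1, ANXA8L2 and ANXA10 had 0 reads in every library, which allows up to 0.0542, 0.0621 and 0.0572 CPM in the knockout libraries and 0.0628, 0.0509 and 0.0528 CPM in the control libraries (3 reads per library, for counting error only). ANXA13 had 3, 1 and 0 reads in knockout libraries, against 0, 1 and 0 in control libraries, all at or under that limit. ANXA2R, a putative receptor for ANXA2 that is no annexin itself, stood at 2.76, 2.09 and 5.51 CPM in knockout libraries, against 4.18, 4.84 and 3.08 CPM in control libraries. Its groups overlapped (log2 -0.22, SE 0.34, edgeR adjusted p = 0.722), and its exons overlap a gene on the opposite strand.

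The lists of other genes that follow were also chosen with earlier results of these data known, so their counts are descriptions. Of 12 genes for proteins that bind annexins, 8 were tested, with 1 higher in knockout, 0 lower and 7 not past the threshold. Their median log2 fold change was 0.66. Of all genes tested, 6.19% were higher and 5.63% lower, and these shares stand beside each list. S100A9, a calcium-binding protein of mature myeloid cells, was the gene that rose, at 0.466 ± 0.189 CPM in knockout, against 0.0832 ± 0.0572 CPM in control (SD, n = 3 each, edgeR adjusted p = 0.0147). That rested on 32, 12 and 30 reads in knockout libraries, against 7, 4 and 2 in control libraries, which were near the floor. S100A9 no longer passed when control replicate 2 (adjusted p = 0.0705), control replicate 3 (0.0896) or knockout replicate 1 (0.0702) was left out. S100A8 had 3, 2 and 3 reads in knockout libraries, against 2, 0 and 3 in control libraries. S100A12 had a single read, in knockout replicate 2, and both were too rare to test. S100A10, the partner of ANXA2, averaged 33.4 ± 5.34 CPM in knockout, against 21.4 ± 4.81 CPM in control (SD, n = 3 each, log2 0.64, edgeR adjusted p = 0.0563). S100A11, which binds ANXA1, averaged 100.9 ± 40.7 CPM in knockout, against 63.2 ± 15.4 CPM in control (SD, n = 3 each, edgeR adjusted p = 0.127). S100A6 averaged 17.4 ± 2.9996 CPM in knockout, against 8.16 ± 4.52 CPM in control (SD, n = 3 each), with an edgeR adjusted p of 0.05003, just short of the threshold. PDCD6, the partner of ANXA7 and ANXA11, averaged 86.8 ± 2.08 CPM in knockout and 100.4 ± 13.7 CPM in control (SD, n = 3 each, edgeR adjusted p = 0.4002). AHNAK, which binds the complex of ANXA2 and S100A10, averaged 73.6 ± 50.6 CPM in knockout and 145 ± 34.1 CPM in control (SD, n = 3 each, edgeR adjusted p = 0.147).

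Among the receptors of ANXA1 and the genes of arachidonate mediators, 12 of 18 were tested, with 3 genes higher, none lower and 9 not past the threshold, at a median log2 fold change of 0.41. FPR2, the receptor of ANXA1, had 0.687, 0.455 and 1.05 CPM in knockout libraries, against 0, 0.0509 and 0.0352 CPM in control libraries (edgeR adjusted p = 0.00167), so that it was near the floor in control cells. FPR1 was too rare to test and FPR3 had 0 reads. TBXAS1, thromboxane synthase, stood at 12.1 ± 3.23 CPM in knockout, against 2.29 ± 0.493 CPM in control (SD, n = 3 each, log2 2.40, SE 0.26, edgeR adjusted p = 0.000411). ALOX5AP, which presents arachidonate to 5-lipoxygenase, stood at 100.8 ± 22.6 CPM in knockout, against 43.7 ± 6.75 CPM in control (SD, n = 3 each, log2 1.21, SE 0.19, edgeR adjusted p = 0.00261). ALOX5 itself was at 0.280 CPM in knockout and 0.137 CPM in control (edgeR adjusted p = 0.311).

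In membrane repair, 16 of 23 genes were tested, of which 3 rose, 0 fell and 13 did not pass, and the median log2 fold change was -0.08. DYSF, which encodes dysferlin, a calcium sensor of membrane repair that works with annexins in muscle, had 2.13, 0.724 and 3.66 CPM in knockout libraries, against 0.0209, 0.0170 and 0.0881 CPM in control libraries (edgeR adjusted p = 0.001005). Its control libraries were near the floor, and its knockout libraries differed widely. OTOF, another ferlin, averaged 0.805 CPM in knockout and 0.134 CPM in control (edgeR adjusted p = 0.00975), a call lost without control replicate 2 (0.0504) or knockout replicate 1 (0.0514). SMPD1, acid sphingomyelinase, averaged 16.6 ± 7.97 CPM in knockout and 5.64 ± 1.21 CPM in control (SD, n = 3 each, edgeR adjusted p = 0.00980), a call lost without control replicate 3 (0.0596).

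Genes of phosphatidylserine exposure and recognition, the lipid that ANXA5 binds, moved both ways. Of 23 genes 16 were tested, with 4 higher in knockout, 2 lower and 10 not past the threshold, at a median log2 fold change of -0.10. MERTK, a receptor kinase for phosphatidylserine-bridging ligands, stood at 5.90 ± 1.02 CPM in knockout, against 1.28 ± 0.288 CPM in control (SD, n = 3 each, log2 2.21, SE 0.27, edgeR adjusted p = 0.000788). BAI1, another phosphatidylserine receptor, fell to 20.4 ± 1.19 CPM in knockout, against 39.4 ± 3.09 CPM in control (SD, n = 3 each, log2 -0.95, SE 0.15, edgeR adjusted p = 0.00281). ATP8A2, a flippase, rose by 1.47 on the log2 scale (edgeR adjusted p = 0.0162), a call lost without control replicate 2 (0.0774), control replicate 3 (0.0803) or knockout replicate 1 (0.0638). TMEM30A, the shared subunit of flippases, rose by 0.68 (edgeR adjusted p = 0.0265). It lies on chromosome 6, where the median log2 fold change was 0.42, and with chromosome centring it was at 0.24 and no longer passed (edgeR adjusted p = 0.434), nor with neighbour centring (0.29, adjusted p = 0.348). Its call was also lost without control replicate 1 (0.0834), control replicate 2 (0.1004), control replicate 3 (0.104) or knockout replicate 1 (0.0730).

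Of 12 genes of plasminogen activation 9 were tested, with 1 higher in knockout, 1 lower and 7 not past the threshold, at a median log2 fold change of -0.09. PLAUR, the urokinase receptor, fell to 7.58 ± 0.0598 CPM in knockout, against 16.01 ± 3.92 CPM in control (SD, n = 3 each, log2 -1.08, edgeR adjusted p = 0.00702). PLAUR lies on chromosome 19, where the median log2 fold change was -0.48, and with chromosome centring it was at -0.60 and no longer passed (edgeR adjusted p = 0.0987), nor with neighbour centring (-0.61, adjusted p = 0.0957). PLGRKT, a plasminogen receptor, rose by 0.64 on the log2 scale (edgeR adjusted p = 0.0410). That call was lost with the replicate block (0.0510), with neighbour centring (0.0523) and without any library other than knockout replicate 2 (0.0631 to 0.169). PLAU, the urokinase itself, averaged 33.4 CPM in knockout and 29.4 CPM in control (edgeR adjusted p = 0.618).

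Of 12 glucocorticoid receptor and target genes 11 were tested, with 0 higher in knockout, 1 lower and 10 not past the threshold, at a median log2 fold change of 0.02. The gene that fell was ZBTB16, at 0.197 ± 0.118 CPM in knockout, against 0.816 ± 0.349 CPM in control (SD, n = 3 each, log2 -2.06, edgeR adjusted p = 0.0203). It no longer passed when control replicate 2 (0.0690), control replicate 3 (0.1135) or knockout replicate 1 (0.0988) was left out. Of the 9 copines, another family of calcium-dependent phospholipid binders, 3 were tested with edgeR and 0 passed, with unadjusted p-values from 0.133 to 0.998. CPNE1, which had the highest mean CPM and shares exons with RBM12, stood at 289.5 ± 20.6 CPM in knockout, against 289.6 ± 7.33 CPM in control (SD, n = 3 each). CPNE2 averaged 10.2 ± 1.82 CPM in knockout and 12.7 ± 1.54 CPM in control (SD, n = 3 each).

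**Figure D4:**
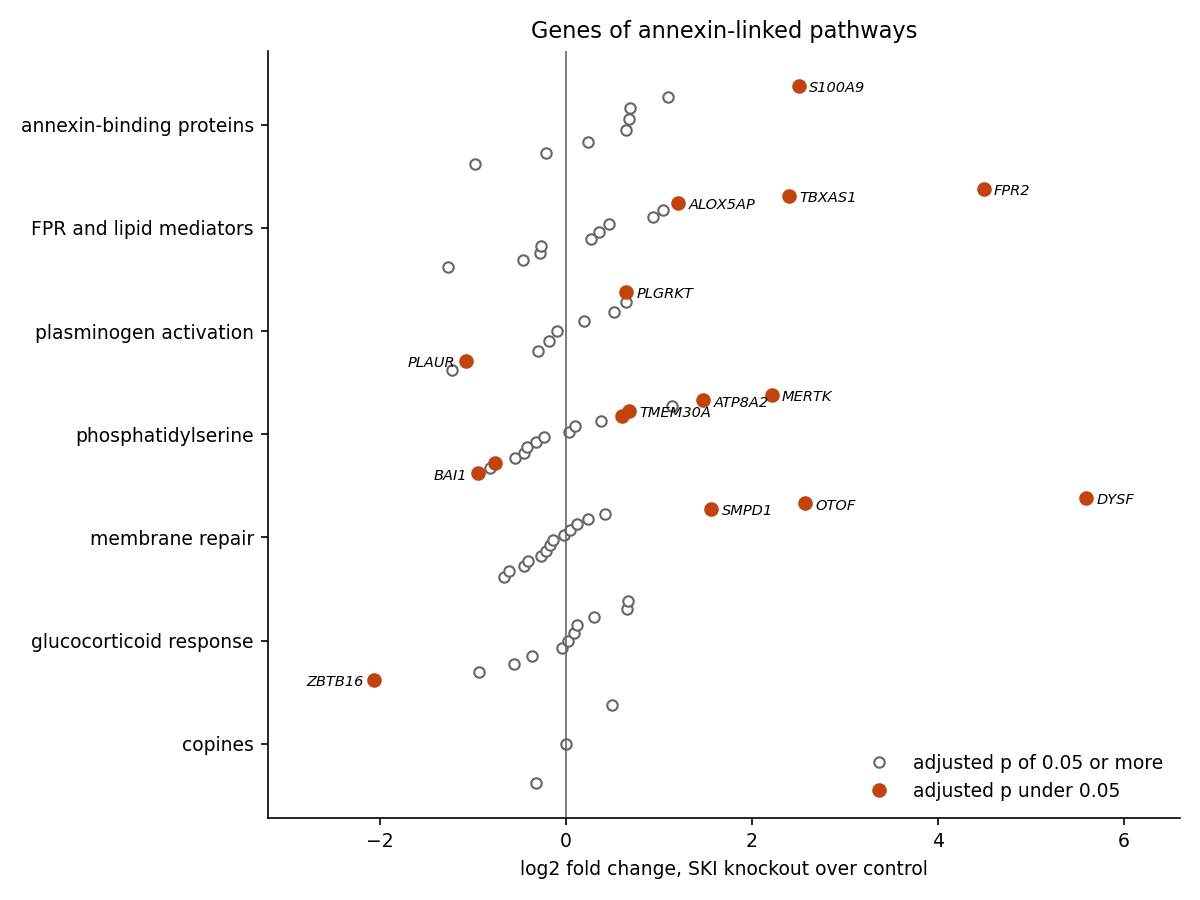
Log2 fold change of knockout over control for the tested genes of 7 annexin-linked lists (rows), each circle a gene, filled red where the edgeR adjusted p was under 0.05, with up to 4 such genes named. Of 74 distinct genes, 12 rose and 4 fell, where 6.19% of all genes tested were higher and 5.63% lower. The lists were chosen with earlier results of these data known, so nothing is read from these counts. FPR2 and DYSF, far to the right, were near the floor in control libraries.

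Library totals ran from 47930276 to 58553247 counts. Of 11 tested genes listed as promyelocyte markers, 9 fell in knockout cells, where 5.63% of all genes tested were lower and 6.19% higher. Those with the smallest p were AZU1, PRTN3, CEBPA and CEBPE (edgeR adjusted p of 0.000591 to 0.00194). AZU1, PRTN3 and CEBPA lie on chromosome 19 (median log2 fold change -0.48) and CEBPE on chromosome 14 (-0.19). With chromosome centring AZU1 went from -2.63 to -2.14 and CEBPA from -1.67 to -1.19 on the log2 scale. PRTN3 went from -4.18 to -3.685 and CEBPE from -1.27 to -1.09, and all 4 stayed under the threshold. The list summed to 3780 to 10430 CPM in knockout, against 14759 to 16501 CPM in control. Of 12 markers of mature neutrophils 5 were tested and 3 rose, CSF3R, CXCR2 and S100A9. The list summed to 82.0 to 93.7 CPM in knockout, against 30.9 to 40.8 CPM in control. S100A9 was near the floor in control libraries, S100A8 and S100A12 were too rare to test, and FCGR3B had 0 reads. Monocyte markers summed to 20.5 to 32.7 CPM in knockout, against 26.7 to 36.2 CPM in control, with EMR1 and CD68 higher and CCR2 lower among 4 tested genes, and MRC1 and MARCO at 0. Markers of epithelial, stromal and endothelial cells, which are rich in several annexins, summed to 5.19 to 10.1 CPM in knockout, against 3.12 to 5.63 CPM in control, with KRT5, COL3A1 and CDH5 at 0 and the 1 tested gene, KRT8, not past the threshold (edgeR adjusted p = 0.0719), while COL1A1 had 2 to 12 reads a library. Lymphoid, erythroid and megakaryocyte markers summed to 14.3 to 21.2 CPM in knockout, against 13.8 to 18.9 CPM in control, with CD79A higher among 3 tested genes (edgeR adjusted p = 0.0162) and MS4A1, HBA1 and PF4 at 0. The call of CD79A was lost without control replicate 2 (0.0657) or control replicate 3 (0.0521). The part of these shifts in the annexin levels was not tested.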

How the data were processed

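Libraries were made from RNA with a stranded TruSeq mRNA kit, per the labels' protocols. Tools listed in the submitters' processing notes are featureCounts, TopHat2, Subread, bcl2fastq, DESeq2 and DESeq, with the build hg19 (GRCh37). No source used here gives versions, annotation, strand setting or the handling of shared reads. All tests used the counts and gene lengths as deposited. The authors' second deposited table holds a signal, counts over a size factor per library, with log2 fold changes, a test score and p-values. It was used for their size factors and for values credited to it.

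Genes kept by filterByExpr were scaled by TMM and tested with edgeR's quasi-likelihood test in R 4.3.3 (edgeR 4.0.16, limma 3.58.1). Group was the only term, with Benjamini-Hochberg adjustment over all genes and a threshold of 0.05. Every annexin described passed the filter's cut of 0.187 CPM in all 6 libraries. SE was derived from the F statistic, and log2 CPM used a prior count of 2. Alternatives were other scalings and filters, DESeq2 1.42.0, limma-voom, a replicate block, chromosome and neighbour centring, and leaving out each library. Scripts were tested on simulated data. Chromosomes came from GENCODE release 29 by symbol. Start windows came from RefSeq by symbol, a later build than the counts. Protein features were planned but protein sequences were not used here.

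The members and lists were chosen with earlier results of these data known. The text names all members, SKI, other annexin genes, up to 4 genes of each list with the smallest p among those under 0.05, or the 2 most abundant where none passed, and genes of like profile. S100A10, S100A11, S100A6, S100A8, S100A12, PDCD6, AHNAK, FPR1, FPR3, ALOX5, PLAU and the markers at 0 reads were named after their values were seen.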

Additional observations from a re-analysis of the deposited data

How the results depend on the processing

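The number of annexins under the threshold was 3 to 5 over all alternatives, against 4, and the sign of the difference was kept in all 16 alternatives for ANXA2, ANXA3, ANXA5, ANXA6, ANXA7 and ANXA9. ANXA3, ANXA7 and ANXA9 were under it in all 16, ANXA2 in 14 and ANXA6 in 7. All settings reuse the same libraries, with which the genes were chosen, so these counts add no support. ANXA1 kept its sign in 13, ANXA4 in 15 and ANXA11 in 14. ANXA2R, at -0.22 on the log2 scale, ran from -0.71 without knockout replicate 3 to 0.057 without knockout replicate 2, a change of sign. Over all genes 1932 passed, against 740 to 2488 with a library left out (932 without control replicate 2, 740 without control replicate 3, 1025 without knockout replicate 1), and 1279 with neighbour centring. Of those, 903, 719, 985 and 1163 were among the 1932. With no filter 1630 genes were higher, against 1012, and 552 were lower with chromosome centring and 493 with neighbour centring, against 920.

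SKI lost its call with library totals (log2 -0.69, adjusted p = 0.0673) and neighbour centring (-0.45, 0.192). Its log2 fold change ranged from -0.91 to -0.61 with a library left out, and the call was lost without control replicate 2 (0.109), control replicate 3 (0.136) or knockout replicate 2 (0.0769). Of genes in the pathway lists, 12 rose, against 20 with no filter and 6 to 14 with a library left out. In the same lists 4 fell, against 7 with no filter, with DESeq2 and with the replicate block, 2 with chromosome centring and with neighbour centring, and 2 to 7 with a library left out. The cause was not tested. Fits without a library hold fewer samples.

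The deviations of same-numbered knockout and control replicates had correlations of -0.17, 0.42 and -0.09 for replicates 1, 2 and 3. Knockout replicate 3 correlated best with control replicate 1 (0.54). With 3 libraries per group, these values cannot settle whether the numbers pair the samples. With the replicate block 2107 genes passed, 5 annexins were under the threshold and the median of the 9 genes' log2 fold change was 0.60.

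Depth limits the values of ANXA9, ANXA2 and the genes near the floor of 0.0509 to 0.0628 CPM.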
